A study of Mus musculus with 16 samples.

Results

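The genes described here are 9 components of the cardiac sarcomere and its scaffold, namely Ttn, Mybpc3, Actn2, Actc1, Acta1, Myom1, Myom2, Des and Nebl. They were chosen by name from the 55492 genes of the deposited expression table, and all 9 were found. RNA sequencing had been run on left ventricles of male C57BL/6 mice of 8 to 12 weeks, with 1 mouse per library. The 16 libraries fall into 6 groups. PKM2fl/fl mice, the floxed controls, and PKM2-/- mice each contributed 2 libraries from untreated hearts (baseline), 3 from hearts taken 3 days after sham surgery and 3 from hearts taken 3 days after myocardial infarction (MI) by ligation of the left anterior descending coronary artery. The PKM2-/- mice carried a germline, whole-body deletion of the Pkm exon that is specific to the PKM2 isoform of pyruvate kinase, made with a CMV-driven Cre that was afterwards bred out, so the loss was not limited to cardiomyocytes and was present throughout development. The controls kept both floxed alleles.

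The sarcomere is the contractile unit of striated muscle. Thin filaments of actin are anchored at the Z-disc by alpha-actinin, thick filaments of myosin are joined at the M-band by the myomesins, and titin runs from the Z-disc to the M-band as a molecular spring. Myosin-binding protein C sits on the thick filament, nebulette lines the thin filament close to the Z-disc, and desmin filaments link neighbouring Z-discs to each other and to the cell membrane. The adult mouse ventricle uses mainly cardiac alpha-actin (Actc1), whereas skeletal alpha-actin (Acta1) belongs to the fetal and stressed heart.

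The libraries held 20623769 to 71855101 reads on genes, and each of the 9 genes had 1553 to 905734 reads per library, so counting error was small against the spread between mice. Values are normalized counts, the reads of a gene divided by the size factor of its library. Reads on rRNA-related genes took 15.8 to 46.3% of a library and differed between genotypes at baseline, with 17.3 and 22.1% in PKM2fl/fl against 44.0 and 39.9% in PKM2-/-. Pkm, counted over both of its isoforms and so no check of the deleted exon, lay at 9108 to 9602 normalized counts in PKM2fl/fl and 11981 to 12984 in PKM2-/- at baseline. The cardiomyocyte identity of the tissue was plain in the 10 cardiomyocyte genes outside the sarcomere used as a reference (Ryr2, Pln, Casq2, Hrc, Slc8a1, Mb, Ckm, Ckmt2, Cox6a2 and Cox7a1), whose summed level was 460489 to 483899 at baseline. The 8 skeletal muscle markers summed to only 48.2 to 137 in all libraries.

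Both sarcomeric actins are shown first, because their coding sequences are close. Over 1134 coding bases (canonical transcripts of GENCODE M39), mouse Actc1 and Acta1 were identical at 977 bases, or 86.2%, and 149 of the 157 differences fell at the third base of a codon. Their longest identical run was 29 bases. The 90 coding bases with the densest differences, from base 406 to base 495 counted from the start codon, are given below with the 20 differing bases in capitals.
Actc1: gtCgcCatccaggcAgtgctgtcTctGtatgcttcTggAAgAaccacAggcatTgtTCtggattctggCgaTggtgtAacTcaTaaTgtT
Acta1: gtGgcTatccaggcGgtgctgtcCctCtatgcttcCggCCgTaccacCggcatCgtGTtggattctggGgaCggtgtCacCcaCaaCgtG

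The promoters of this pair are shown because both carry a CArG box, the motif bound by serum response factor, close to the transcript start. The 150 bases upstream of each start are RefSeq sequences on GRCm38.p6, the same assembly as mm10, from chr2:114052876-114053025 for Actc1 and chr8:123894776-123894925 for Acta1, both read on the minus strand. The CArG box is in capitals and lies 47 bases upstream of the Actc1 start and 73 bases upstream of the Acta1 start.
Actc1: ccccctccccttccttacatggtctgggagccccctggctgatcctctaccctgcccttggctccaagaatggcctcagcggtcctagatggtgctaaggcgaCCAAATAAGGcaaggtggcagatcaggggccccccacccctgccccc
Acta1: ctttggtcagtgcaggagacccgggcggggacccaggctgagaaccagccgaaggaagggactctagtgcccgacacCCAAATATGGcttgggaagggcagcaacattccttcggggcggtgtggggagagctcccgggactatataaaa
Promoter windows were found for 8 of the 9 genes, 11 windows in all. Within 250 bases upstream, searched on both strands, a CArG box was found in 4 of them (Actc1, Acta1, Myom1 and 1 of the Nebl windows), against 1.47% of 32851 promoter windows. The Nebl windows lie inside the span of that gene, the one with the box at chr2:17462857-17463106. The Myom1 window, at chr17:71019307-71019556, also lies inside the span of its gene. Whether transcripts start at these places in these hearts was not tested. A MEF2 site was found in 2 windows, those of Ttn and Mybpc3, against 2.92% of all windows. The letters CATTCC, the core bound by TEAD factors, occurred in 2 windows, at 46 bases upstream of Acta1 and in 1 Nebl window, against 12.6% of all windows. These are matches of letters in a window and do not show binding.

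Together the 9 genes took 2.81 to 3.93% of the reads outside rRNA-related and mitochondrial genes at baseline, 2.62 to 3.51% after sham and 0.886 to 1.99% after MI. Ttn alone took 1.82 to 2.37% at baseline and 0.423 to 1.14% after MI.

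Levels of different genes can be compared only per length, since the Ttn transcript used here has 107543 bases and that of Acta1 only 1648. In normalized counts per kilobase of canonical transcript at baseline (mean ± SD, n = 4), Actc1 was highest at 32595 ± 8389, followed by Mybpc3 at 12398 ± 2213 and Des at 7889 ± 239. Actn2 (4857 ± 434), Myom1 (4161 ± 598), Ttn (4156 ± 390), Acta1 (3800 ± 813) and Myom2 (3181 ± 325) followed, and each overlapped its neighbour in this order. Nebl was lowest at 1155 ± 46.3 and did not overlap Myom2. After MI (n = 6) Des, at 6466 ± 1437, stood above Mybpc3, at 4519 ± 1716, and Acta1, at 2948 ± 2115, stood between Mybpc3 and Actn2, but the values of these neighbours overlapped. Only the steps from Actc1 (14890 ± 4880) to Des and from Myom2 to Nebl (367 ± 168) were free of overlap after MI. The order depends on the length used. Per kilobase of all annotated exons at baseline, Ttn (3803 ± 357) stood above Actn2 (2888 ± 258) without overlap. Actc1, Mybpc3 and Des stayed highest and Nebl lowest.

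**Figure D1:**
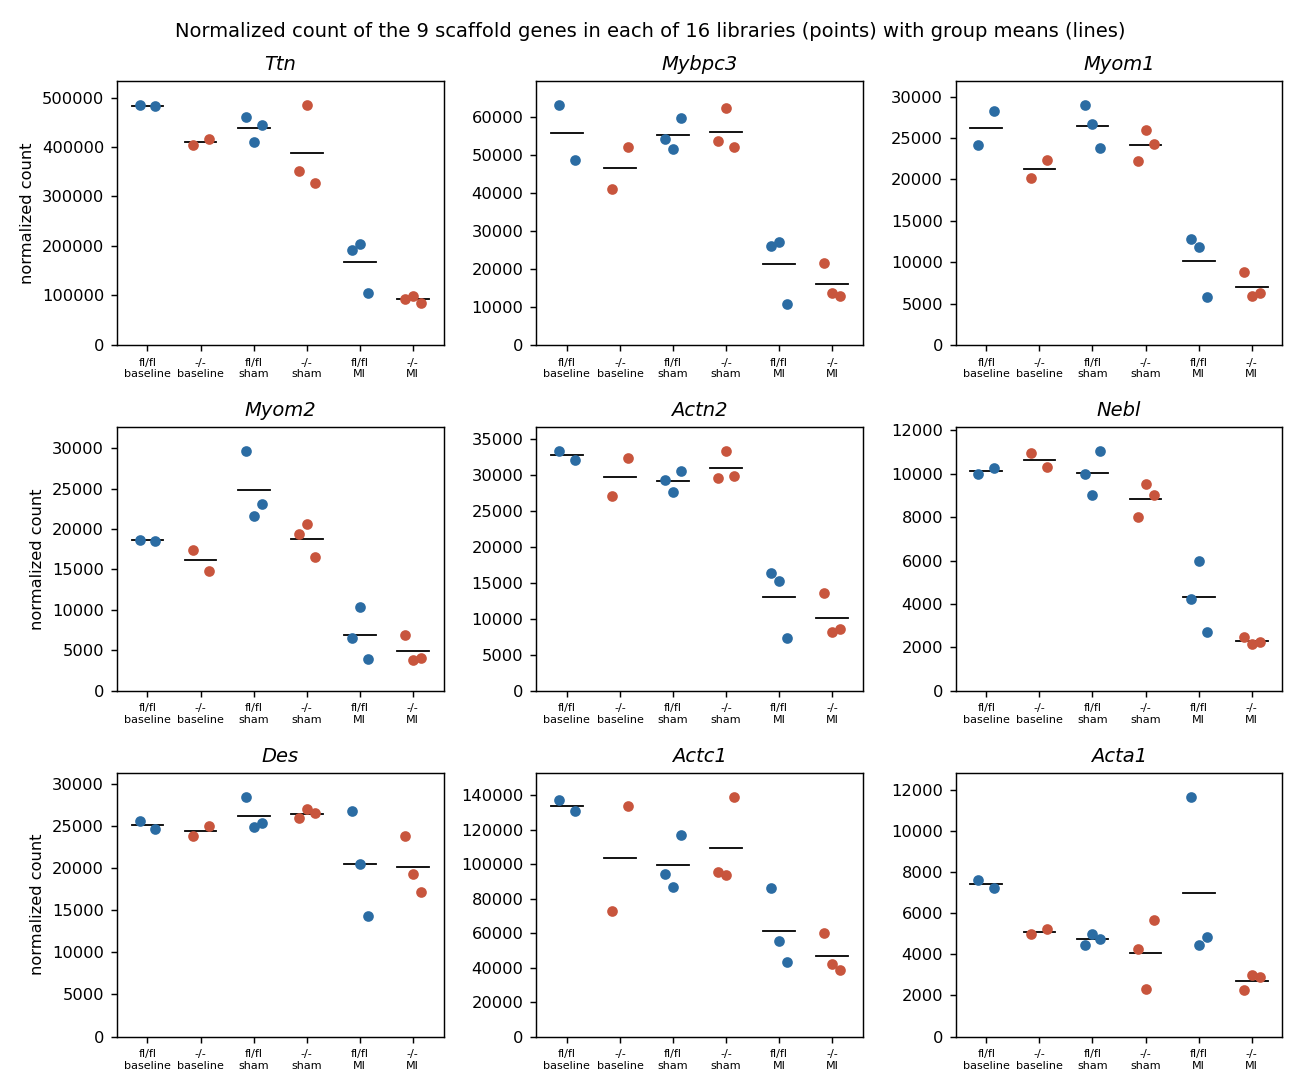
Normalized count (vertical axis, from 0) of each of the 9 genes in every library (points), grouped by genotype and treatment, with the group mean as a line. Ttn lies between 326324 and 484789 in sham hearts and between 84328 and 204086 in MI hearts, whereas the MI and sham values of Des and Acta1 overlap.

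The first comparison asked how the scaffold genes stood 3 days after MI against sham surgery. Across both genotypes 8 of the 9 genes were lower after MI and only Acta1 was not, at an adjusted p under 0.05 in limma. Of all 20604 genes tested, 31.4% were lower. The 9 genes had a median log2 change of −1.61, beside 0.02 over all genes. In 7 of the 9 genes every MI library lay below every sham library, as it did in 20.1% of all genes. In ventricular tissue, fewer cardiomyocytes and less RNA per cardiomyocyte cannot be told apart by such values.

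Titin is the giant spring that sets passive stiffness and the length of the thick filament. Ttn stood at 460572, 409502 and 444011 normalized counts in the PKM2fl/fl sham hearts and at 192107, 204086 and 104096 in the PKM2fl/fl MI hearts. In PKM2-/- it stood at 352500, 484789 and 326324 after sham and at 92457, 99810 and 84328 after MI. No MI library reached a sham library, and the third PKM2fl/fl MI heart was the only control heart close to the PKM2-/- MI hearts. The drop was 3.37-fold over both genotypes (log2 −1.75 ± 0.28 SE, adjusted p = 7.48e-05 in limma). Within PKM2fl/fl alone the same gene had log2 −1.45 and missed the threshold (adjusted p = 0.0631), but it passed without the third MI heart (log2 −1.14, adjusted p = 0.0113) and in edgeR on the recovered reads (adjusted p = 0.0253). Its adjusted p ranged from 1.58e-07 to 0.144 over the alternatives.

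The thick filament and M-band genes moved with Ttn. Myom2, an M-band protein of fast fibres and the heart, had the largest drop of the 9 over both genotypes, whereas Ttn fell most within PKM2-/- (log2 −2.05 against −1.98). Its normalized counts were 29656, 21595 and 23041 in PKM2fl/fl sham hearts, 6514, 10353 and 3982 in PKM2fl/fl MI hearts, 19324, 20572 and 16561 in PKM2-/- sham hearts and 6928, 3856 and 4051 in PKM2-/- MI hearts. The highest MI heart was below the lowest sham heart. Myom2 fell 3.87-fold (log2 −1.95 ± 0.20, adjusted p = 1.57e-06). Myom1, which bridges neighbouring thick filaments, lay at 22208 to 28993 after sham and 5741 to 12863 after MI and fell 3.10-fold (log2 −1.63 ± 0.18, adjusted p = 2.68e-06). Mybpc3, the cardiac regulator of cross-bridge cycling, lay at 51588 to 62517 after sham and 10858 to 27026 after MI and fell 3.16-fold (log2 −1.66 ± 0.22, adjusted p = 1.2e-05).

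At the Z-disc, Nebl and Actn2 also fell. Nebl, encoding nebulette, had 9986, 9002 and 11056 normalized counts in PKM2fl/fl sham hearts and 4226, 5970 and 2717 in PKM2fl/fl MI hearts. In PKM2-/- it had 7985, 9514 and 8999 after sham and 2464, 2178 and 2240 after MI. The PKM2-/- MI hearts lay close together and all below the lowest PKM2fl/fl MI heart. Nebl fell 3.06-fold over both genotypes (log2 −1.61 ± 0.17, adjusted p = 1.62e-06). Actn2, the sarcomeric alpha-actinin that cross-links actin at the Z-disc, lay at 27582 to 33328 after sham and 7400 to 16318 after MI and fell 2.73-fold (log2 −1.45 ± 0.19, adjusted p = 1.34e-05).

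Desmin changed least among the genes that fell. Des had 28450, 24826 and 25324 normalized counts in PKM2fl/fl sham hearts and 26738, 20416 and 14241 in PKM2fl/fl MI hearts. In PKM2-/- it had 25885, 26958 and 26488 after sham and 23793, 19254 and 17134 after MI. The first control MI heart exceeded 4 of the 6 sham hearts, so the groups overlapped. Des fell 1.33-fold (log2 −0.41 ± 0.14, adjusted p = 0.0214), a call that was lost when libraries were scaled to reads outside rRNA-related and mitochondrial genes (log2 −0.30, adjusted p = 0.142) and without the third PKM2-/- MI heart (log2 −0.36, adjusted p = 0.0561).

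The actin pair split. Cardiac alpha-actin, the main thin filament actin, had 94308, 86807 and 116902 normalized counts in PKM2fl/fl sham hearts and 86176, 55462 and 43049 in PKM2fl/fl MI hearts. Actc1 in PKM2-/- had 95253, 93702 and 139292 after sham and 60410, 42118 and 38422 after MI. The highest MI heart lay just under the lowest sham heart. Actc1 fell 1.97-fold over both genotypes (log2 −0.98 ± 0.22, adjusted p = 0.00117).

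Skeletal alpha-actin was the 1 gene with no clear direction. Acta1 had 4460, 5015 and 4742 normalized counts in PKM2fl/fl sham hearts and 11679, 4450 and 4865 in PKM2fl/fl MI hearts. In PKM2-/- it had 4280, 2293 and 5691 after sham and 2271, 2989 and 2897 after MI. The first PKM2fl/fl MI heart stood above all other 15 libraries, and the remaining MI values overlapped the sham values. The log2 fold change over both genotypes was −0.04 ± 0.27 (adjusted p = 0.90), with a 95% confidence interval from −0.61 to 0.53, and 0.064 when libraries were scaled to reads outside rRNA-related and mitochondrial genes.

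The same comparison was made within each genotype. In PKM2fl/fl 5 of the 9 genes were lower after MI (Mybpc3, Actn2, Myom1, Myom2 and Nebl), where 22.0% of all genes were lower. In PKM2-/- 8 of the 9 genes were lower, all but Acta1, where 26.4% of all genes were lower. MI and sham hearts did not overlap in 7 of the 9 genes in PKM2fl/fl and in 8 of the 9 in PKM2-/-, beside 28.8% and 30.3% of all genes in that direction. In PKM2fl/fl Actc1 had log2 −0.74 (adjusted p = 0.116) and passed in DESeq2 (adjusted p = 0.0172). The Des call in PKM2-/- (log2 −0.41, adjusted p = 0.0438) was lost under several alternatives, among them the scaling to reads outside rRNA-related and mitochondrial genes (log2 −0.20, adjusted p = 0.444) and the fit with replicate number as a block (adjusted p = 0.0865). Acta1 in PKM2-/- had log2 −0.50 (adjusted p = 0.15) and passed without the second PKM2-/- sham heart (log2 −0.87, adjusted p = 0.00213) and in DESeq2 (adjusted p = 0.0275).

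Markers of other cells moved at the same time. The 10 leukocyte markers summed to 5223 to 10654 normalized counts in sham hearts and 20902 to 36750 in MI hearts, and 7 of the 9 tested were higher. Of the 8 fibroblast markers 7 were higher and 1 lower, and their sum went from 25357 to 46994 up to 143683 to 198375. The cardiomyocyte reference genes outside the sarcomere were lower in 10 of 10 cases with a median log2 fold change of −1.97, and their sum went from 401997 to 494397 in sham hearts down to 100014 to 203551 in MI hearts. Smooth muscle markers, 3 of 5 higher and 2 lower, summed to 5648 to 9195 and 6827 to 10280, and the 4 atrial markers, of which Nppa alone was called, summed to 2563 to 6987 and 9080 to 11652. Their mean log2 level varied widely between hearts. It ran from 5.59 to 7.89 at baseline, from 7.54 to 9.64 after sham and from 6.91 to 9.32 after MI. Of the endothelial markers 1 of 5 was higher and 2 were lower, and of 3 skeletal muscle markers tested 1 was higher. The part of these cells in the scaffold values was not tested.

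MI and sham hearts were also compared relative to those cardiomyocyte genes, with each library divided by the geometric mean of its 10 reference genes. On this scale 4 of the 9 scaffold genes were higher after MI, and 2 of them (Acta1 and Des) by at least 2-fold. Since the reference itself fell, 91.0% of all genes were higher on this scale, 84.2% by at least 2-fold, and the median over all genes was 1.90, so these values describe the scaffold against other cardiomyocyte transcripts and not against the tissue. Acta1 had 0.0808 to 0.176 times the reference level in sham hearts and 0.267 to 0.960 times in MI hearts (log2 difference 1.85, adjusted p = 1.45e-06). Des had 0.767 to 0.961 times the reference in sham and 1.58 to 2.90 times in MI hearts (log2 difference 1.48, adjusted p = 9.18e-08). Actc1 had 2.68 to 4.32 times the reference in sham and 4.29 to 8.20 times in MI hearts (log2 difference 0.91, adjusted p = 0.000108). The groups did not overlap for Acta1 or Des and barely overlapped for Actc1. They were only just apart for Actn2, at no more than 1.174 times the reference in sham and no less than 1.175 times in MI hearts. The share of all genes without overlap on this scale was not counted.

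Actn2 had a log2 difference of 0.44 on this scale (adjusted p = 0.0146) and lost its call without a filter on low values (adjusted p = 0.0691). The other 5 genes missed the threshold. Their log2 differences were 0.14 for Ttn (adjusted p = 0.466), 0.23 for Mybpc3 (adjusted p = 0.179), 0.26 for Myom1 (adjusted p = 0.13), −0.06 for Myom2 (adjusted p = 0.753) and 0.28 for Nebl (adjusted p = 0.138).

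**Figure D2:**
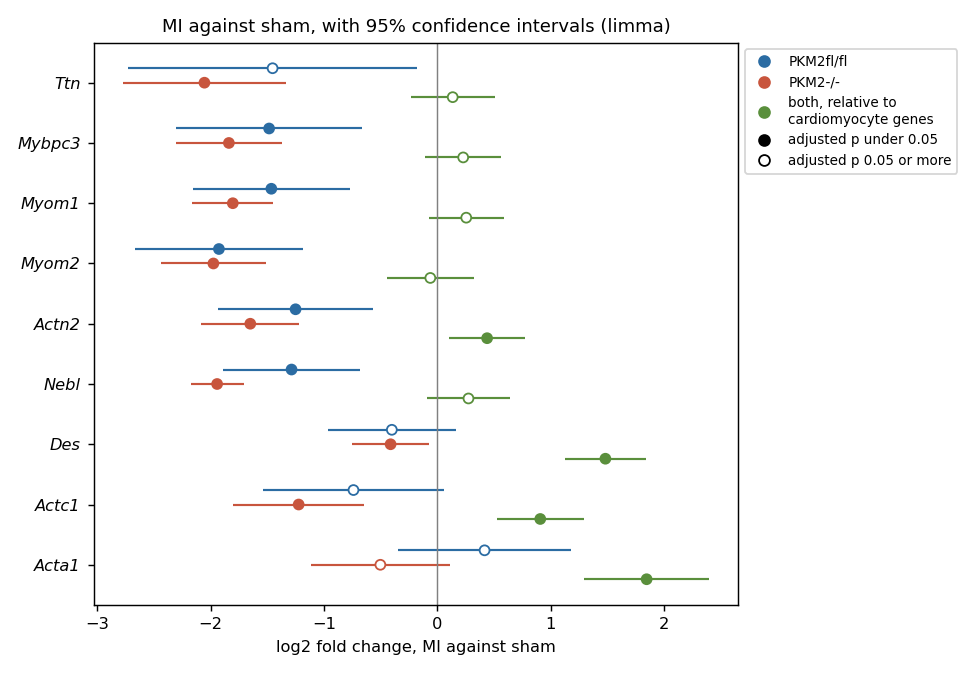
Log2 fold change of MI against sham hearts (horizontal axis) for each of the 9 genes in PKM2fl/fl, in PKM2-/- and in both genotypes relative to cardiomyocyte genes, with 95% confidence intervals and filled points at an adjusted p under 0.05. Ttn, the myomesins, Mybpc3, Actn2 and Nebl have log2 changes from −2.05 to −1.25 within a genotype and from −0.06 to 0.44 relative to cardiomyocyte genes, whereas Acta1 and Des lie at 1.85 and 1.48 on the relative scale.

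Ratios within a library do not depend on its scaling, so the actin pair and the myomesin pair were also compared as ratios, with 4 two-sided exact permutation tests adjusted together. These are ratios of reads, not corrected for transcript length, so their size says nothing of the relative level of both genes. Acta1 reads amounted to 4.73, 5.78 and 4.06% of Actc1 reads in PKM2fl/fl sham hearts and to 13.6, 8.03 and 11.3% in PKM2fl/fl MI hearts. In PKM2-/- it amounted to 4.49, 2.45 and 4.09% after sham and to 3.76, 7.10 and 7.54% after MI. All control MI hearts exceeded all control sham hearts, while the first PKM2-/- MI heart stayed within the sham range. The ratio was 1.92-fold higher after MI over both genotypes, an exact permutation p of 0.015 that became 0.06 after adjustment over the 4 tests.

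Between genotypes the Acta1 share of Actc1 was lower in PKM2-/- by 0.47 on the log2 scale over all treatments (exact permutation p = 0.0417, adjusted p = 0.0667). At baseline it was 5.53% in both PKM2fl/fl hearts and 6.83 and 3.91% in the PKM2-/- hearts, on either side of the controls. Leaving out single libraries moved this p between 0.00333 and 0.138. Myom2 amounted to 93.3 ± 11.0% of Myom1 in PKM2fl/fl sham hearts and 69.0 ± 18.2% in PKM2fl/fl MI hearts, and to 78.1 ± 9.41% and 69.3 ± 8.07% in PKM2-/- (SD, n = 3 each). The myomesin ratio was lower after MI by 0.32 on the log2 scale (exact permutation p = 0.05, adjusted p = 0.0667), and its genotype difference was −0.04 (exact permutation p = 0.696). None of the 4 ratio tests passed after adjustment.

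**Figure D3:**
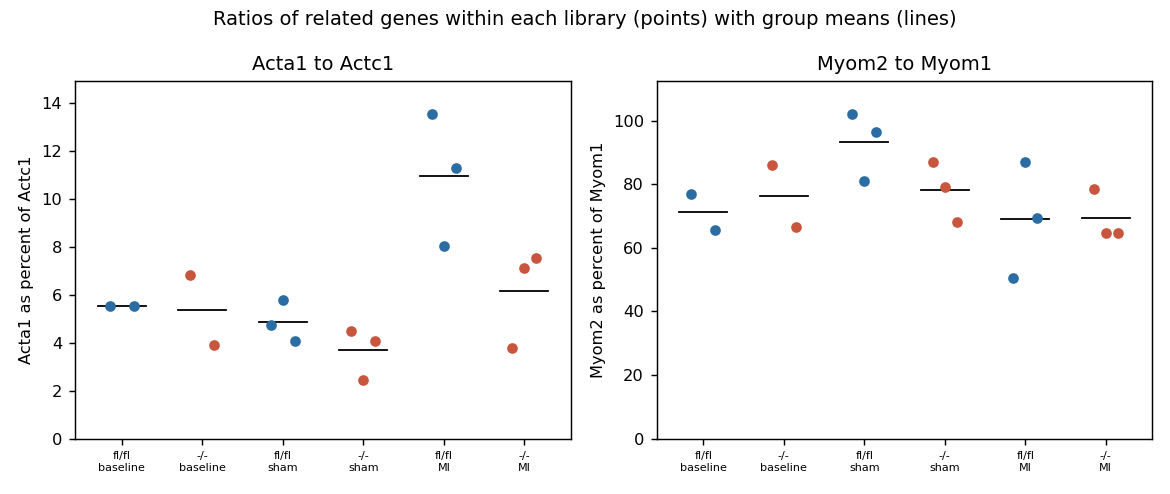
Acta1 as a percent of Actc1 and Myom2 as a percent of Myom1 (vertical axes, from 0) in each library (points) with group means (lines), by genotype and treatment. The PKM2fl/fl MI hearts sit at 8.03 to 13.6% for the actin ratio, above the 4.06 to 5.78% of PKM2fl/fl sham hearts, and the PKM2-/- MI hearts sit at 3.76 to 7.54%.

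The second comparison asked whether loss of PKM2 altered the scaffold genes. None of the 9 genes passed in limma in any genotype comparison. At baseline 0 of 9 passed, where 0.238% of all genes did, and 2 of the 9 had an unadjusted p under 0.05, as did 4.98% of all genes. The counts of members called by other tools at baseline were 0 in edgeR with the filter, 2 without it and 1 in DESeq2, where 0.248%, 0.929% and 0.492% of all genes were called. The PKM2-/- hearts lay wholly below the controls in 4 genes (Ttn, Myom1, Myom2 and Acta1) and above them in Nebl, beside 16.9% and 17.9% of all genes, with only 2 hearts per group. The Nebl difference was 0.07 on the log2 scale and turned to −0.045 with the scaling to reads outside rRNA-related and mitochondrial genes.

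Acta1 showed the largest genotype difference at baseline. It had 7603 and 7222 normalized counts in PKM2fl/fl and 4994 and 5232 in PKM2-/-. The log2 difference was −0.54 ± 0.08 (adjusted p = 0.0977). It passed with the scaling to reads outside rRNA-related and mitochondrial genes (log2 −0.65, adjusted p = 0.0310) and in DESeq2 (adjusted p = 0.000807), and its adjusted p ranged from 0.000117 to 1.00 over the alternatives. Actc1 had 137423 and 130694 in PKM2fl/fl and 73129 and 133992 in PKM2-/-, so that 1 PKM2-/- heart was low and the other was within the control range (log2 −0.44, adjusted p = 0.94). The rRNA-related read share, which moved with genotype at baseline, was not tested as a part of these differences.

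After sham 0 of the 9 genes passed, where 0.0447% of all genes did. A single gene, Myom2, had an unadjusted p under 0.05, as did 10.8% of all genes. None were called in edgeR, in edgeR without the filter or in DESeq2, which called 0.0496%, 1.91% and 1.98% of all genes. Myom2 was also the only gene whose genotypes did not overlap after sham (log2 −0.39, adjusted p = 0.396), in a direction that 8.27% of all genes shared. The remaining differences ranged from −0.31 for Acta1 to 0.13 for Actc1.

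After MI the PKM2-/- hearts lay below all control hearts in 3 of the 9 genes, where 8.04% of all genes did so. Their log2 differences were −1.23 ± 0.33 for Acta1 (adjusted p = 0.223), −0.84 ± 0.25 for Nebl (adjusted p = 0.243) and −0.80 ± 0.34 for Ttn (adjusted p = 0.376). Thus 0 of 9 passed in limma, where 0.0291% of all genes did, although 3 had an unadjusted p under 0.05, as did 12.8% of all genes. The counts by other tools were 0 in edgeR with the filter, 2 without it (Acta1 and Nebl) and 3 in DESeq2 (Ttn, adjusted p = 0.0162, Acta1, adjusted p = 0.00242, and Nebl, adjusted p = 0.0156). These tools called 0.0291%, 1.73% and 2.67% of all genes. As log2 level over the cardiomyocyte reference, Acta1 overlapped after MI (−0.06, −1.54 and −0.11 in PKM2fl/fl, −1.90, −1.15 and −1.13 in PKM2-/-). Nebl overlapped narrowly (−1.52, −1.12 and −0.95 against −1.79, −1.61 and −1.50). Ttn did not overlap (3.98, 3.98 and 4.31 against 3.44, 3.91 and 3.73), but the gap was narrow, from 3.91 to 3.98. The genotypes were not tested on this scale, and the share of all genes without overlap on it was not counted.

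Both the tool and the third PKM2fl/fl MI heart moved these calls. Without that heart 4 of the 9 genes were lower in PKM2-/- than in the remaining 2 control MI hearts, where 4.39% of all genes were lower and 7.68% were called in either direction, with log2 differences of −1.11 for Ttn (adjusted p = 0.0308), −1.42 for Acta1 (adjusted p = 0.0390), −0.84 for Myom1 (adjusted p = 0.0244) and −1.13 for Nebl (adjusted p = 0.00605). That heart also had less of the cardiomyocyte reference than the other control MI hearts, with summed levels of 188565, 203551 and 100014 in PKM2fl/fl and 135829, 105093 and 102641 in PKM2-/-. Its summed leukocyte markers were the highest of the MI hearts, at 24819, 20902 and 36750 in PKM2fl/fl and 28862, 33372 and 32484 in PKM2-/-. By the mean log2 level of the 10 leukocyte markers that heart, at 9.83, stood below the PKM2-/- MI hearts, at 9.89, 9.96 and 10.06. The reference genes thus stood lower and the leukocyte markers higher in PKM2-/- than in the first 2 control hearts, alongside the scaffold genes, and their part in the difference was not tested.

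Over all treatments 0 of the 9 genes passed in limma, where 0.0243% of all genes did, and 3 had an unadjusted p under 0.05, as did 13.0% of all genes. The counts were 0 in edgeR with the filter, 2 without it (Acta1 and Nebl) and 0 in DESeq2, beside 0.0243%, 1.89% and 1.99% of all genes. The estimates were −0.71 ± 0.21 for Acta1 (adjusted p = 0.176), −0.43 for Ttn (adjusted p = 0.433), −0.36 for Nebl (adjusted p = 0.308) and −0.36 for Myom2 (adjusted p = 0.356). Des was closest to 0, at −0.003, with a 95% confidence interval from −0.23 to 0.23.

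**Figure D4:**
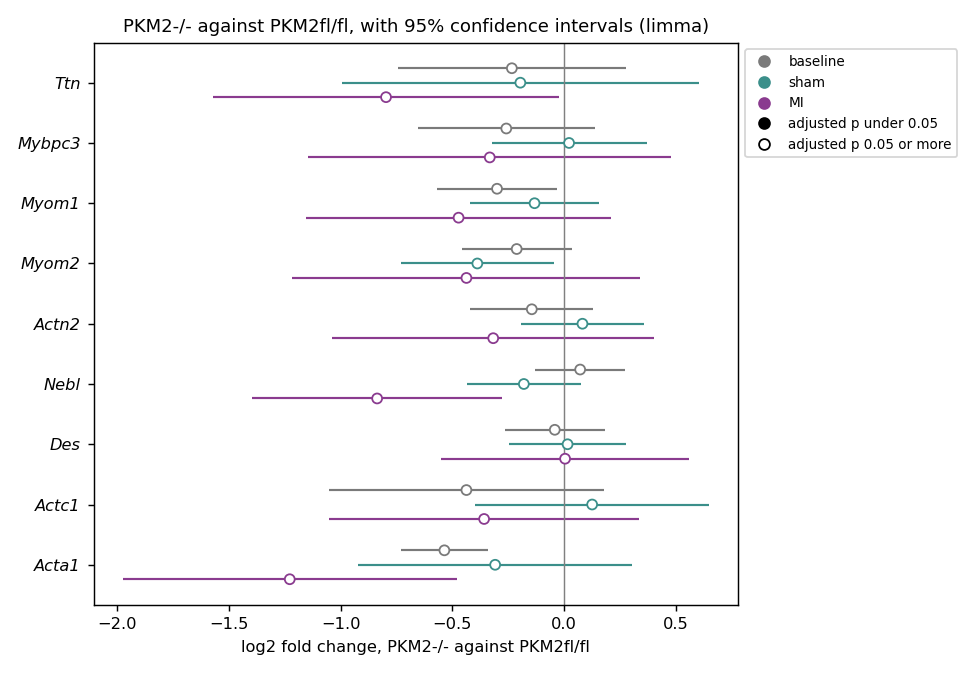
Log2 difference of PKM2-/- against PKM2fl/fl (horizontal axis) for each of the 9 genes at baseline, after sham and after MI, with 95% confidence intervals; open points have an adjusted p of 0.05 or more. All points are open, and the intervals for Acta1, Nebl and Ttn after MI, centred at −1.23, −0.84 and −0.80, lie below 0 before adjustment.

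Whether the response to MI itself differed between genotypes was tested by the interaction term. None of the 20604 genes, and so 0 of the 9, passed in limma, and the percent called was 0. At an unadjusted p under 0.05 there were 1468 genes, of which 1 was among the 9 (Nebl). Over all genes edgeR called 0, edgeR without the filter 148 and DESeq2 41, and each of these called 0 of the 9. The estimates were −0.92 for Acta1 (95% confidence interval −1.98 to 0.14), −0.66 for Nebl (−1.31 to −0.01) and −0.60 for Ttn (−1.79 to 0.58), with adjusted p values of 0.734, 0.696 and 0.829. Without the third PKM2fl/fl MI heart Nebl passed (log2 −0.95, adjusted p = 0.0401), as did 1.17% of all genes. With all hearts in the limma fit, the larger number of calls in PKM2-/- than in PKM2fl/fl came with no called interaction. That larger number therefore does not show a difference between genotypes in the MI response.

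The third comparison set sham against baseline hearts, to see what surgery without infarction did. None of the 9 genes passed in limma, where 6.55% of all genes did, and 2 had an unadjusted p under 0.05, as did 21.7% of all genes. The counts were 0 in edgeR with the filter, 2 without it (Acta1 and Myom2) and 1 in DESeq2 (Myom2), beside 6.13%, 7.05% and 10.4% of all genes. Acta1 had 4994 to 7603 normalized counts at baseline and 2293 to 5691 after sham (log2 −0.53 ± 0.19, adjusted p = 0.115), and it passed without the third PKM2-/- sham heart (log2 −0.67, adjusted p = 0.0246), where 5.17% of all genes did. Myom2 had 14842 to 18640 at baseline and 16561 to 29656 after sham (log2 0.31 ± 0.10, adjusted p = 0.102). All 9 genes overlapped between sham and baseline, but the share of all genes that did so was not counted.

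The other genes of the sarcomere scaffold were followed as lists, in the comparison of MI against sham over both genotypes, where 32.7% of all genes were higher and 31.4% lower. Among 13 partners and turnover factors of titin 10 were lower and 2 higher (median log2 −1.43). Trim63, a muscle ubiquitin ligase that binds titin at the M-band, went from 3020 ± 479 to 982 ± 288 normalized counts (log2 −1.65, adjusted p = 3.33e-07). Its relative Trim55 had log2 −1.43 (adjusted p = 3.91e-07). Rbm20, the splicing factor that sets titin isoforms, went from 11701 ± 1255 to 3419 ± 1586 (log2 −1.88, adjusted p = 8.64e-07). The 2 higher genes, named after their values were seen, were Ankrd2 (9.68 ± 3.38 to 33.4 ± 12.4 normalized counts), a stretch-responsive ankyrin protein, and Fhl1 (2652 ± 242 to 3887 ± 673), a LIM protein that binds titin.

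At the Z-disc 12 of the 17 tested genes were lower and 1 higher (median log2 −0.83). Myoz2, which ties calcineurin to the Z-disc, had log2 −1.61 (adjusted p = 7.79e-07), Nexn, an actin-binding Z-disc protein, −1.50 (adjusted p = 1.43e-06) and Synpo2 −1.36 (adjusted p = 1.59e-06). The higher gene was Myoz1, named after its values were seen, at 4.86 ± 2.23 normalized counts in sham and 16.4 ± 8.22 in MI hearts. Of 11 genes of thin filament length and capping 8 were lower and 1 higher (median log2 −1.06). Tmod4, a pointed-end capping protein, went from 347 ± 25.6 to 62.8 ± 29.2 normalized counts (log2 −2.56, adjusted p = 4.16e-07). Fhod3, a formin needed for thin filament assembly, had log2 −1.97 (adjusted p = 4.19e-07) and Neb, the long relative of nebulette, −1.06 (adjusted p = 1.25e-05). The higher gene, Xirp2, went from 21937 ± 2331 to 30647 ± 3545 and was also named after its values were seen.

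Sarcomere chaperones were lower in 5 of 6 cases, with none higher (median log2 −1.17). Among them were Smyd1 (log2 −1.37, adjusted p = 1.24e-06) and Unc45b (log2 −1.68, adjusted p = 4.14e-06), which act in the folding of myosin, and the small heat shock protein Hspb8 (log2 −1.13, adjusted p = 5.75e-05). The intermediate filament and costamere list around desmin was mixed, with 4 of 8 lower and 3 higher (median log2 −0.25). Sgcd, a dystrophin-complex protein of muscle, had log2 −1.13 (adjusted p = 5.85e-07). Vim, the intermediate filament of mesenchymal cells, went from 4618 ± 629 to 22928 ± 4054 (log2 2.30, adjusted p = 1.54e-09), and Lmna of the nuclear lamina had log2 0.77 (adjusted p = 7.87e-07).

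The list of other actins and actinins (Acta2, Actg2, Actb, Actg1, Actn1, Actn3 and Actn4) moved opposite to Actc1 and Actn2. All 6 tested of 7 were higher (median log2 1.58). Actb, the beta-actin of most cells, went from 11965 ± 2217 to 60716 ± 9355 normalized counts (log2 2.35, adjusted p = 5.98e-09). Actg1, the other cytoplasmic actin, had log2 2.03 (adjusted p = 2.07e-08) and Actn1, the non-muscle alpha-actinin, 1.76 (adjusted p = 5.88e-10). The leukocyte and fibroblast markers rose in the same hearts, and their part in these values was not tested. In the genotype comparison over all treatments 0 genes of any list passed in limma. The lowest unadjusted p of each list belonged to Trim55 (log2 −0.37, adjusted p = 0.169), Palld (−0.41, 0.209), Neb (−0.34, 0.249), Lmna (0.23, 0.224), Hspa8 (0.30, 0.398) and Actn1 (0.17, 0.294).

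**Figure D5:**
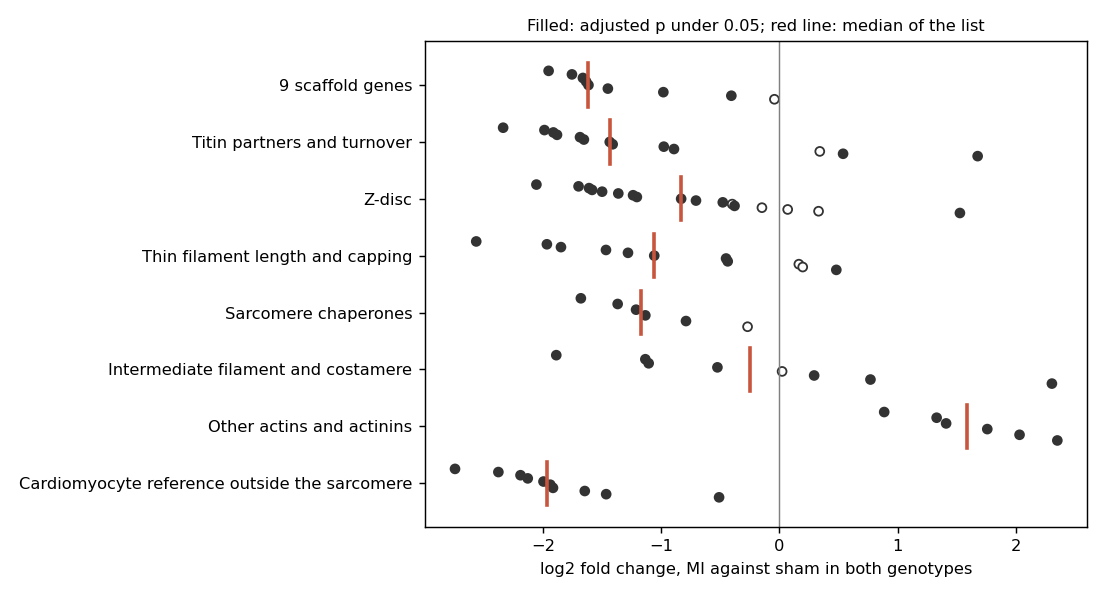
Log2 fold change of MI against sham in both genotypes (horizontal axis) of every tested gene of the 9 scaffold genes, of 6 related lists and of the cardiomyocyte reference, with filled points at an adjusted p under 0.05 and the list median as a red line. The medians lie at −1.61 for the 9 genes and −1.97 for the reference, and at 1.58 for the other actins and actinins.

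Across the 16 libraries the genes whose log2 values ran most like each member were sought among 13470 genes. The 6 MI libraries stand apart from the other 10, so Pearson's r measures mostly that separation and is given as a description. Actn2 ran most like Mfn2 (r = 0.997) and Nebl most like Rbm20 (r = 0.995). Myom1 ran most like Coro6 (r = 0.992), Myom2 like Hopx (r = 0.991) and Des like Flii (r = 0.960). Acta1 had no close partner, its highest r being 0.837 with Ebf3, and its r with the other 8 members ran from 0.208 to 0.500, whereas Ttn and Nebl had 0.985 and Mybpc3 and Actn2 had 0.991.

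The nearest partners of Ttn and Actc1 were entries of the table that followed them almost exactly. Gm13938, an RNA antisense to Ttn with 453 of its 493 exonic bases over Ttn exons in GENCODE M39, had 40.0 to 45.7% of the reads of Ttn in every library (r = 0.999). A530058N18Rik, which RefSeq places at chr2:114013565-114032292, 14989 bases from Actc1, had 102 to 104% of the reads of Actc1. The library kit does not mark strand and the gene models and strand setting of the counting are not stated, so these entries are uncertain as separate genes. Reads shared or split between each pair would also touch the printed Ttn and Actc1 counts and the ratio of Acta1 to Actc1, and this was not tested. Smaller antisense overlaps exist between Myom1 and Myl12a (246 exonic bases), Acta1 and Gm29773 (209) and Des and Gm15179 (288). The members themselves span, on mm10, chr2:76703980-76982557 (Ttn), chr2:17342673-17734949 (Nebl), chr2:91118114-91136516 (Mybpc3), chr2:114047282-114052875 (Actc1), chr8:123891758-123894775 (Acta1), chr8:15057653-15133420 (Myom2), chr17:71003332-71126856 (Myom1), chr13:12269426-12340732 (Actn2) and chr1:75360292-75368579 (Des).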

How the data were processed

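Reads had been trimmed (PRINSEQ), mapped to mm10 (HISAT2) and assigned to genes (featureCounts) by the authors, and gene counts were divided by DESeq2 size factors. Libraries were rRNA-depleted and prepared with a kit that does not mark strand. Versions are not given in the sources used here. The deposited signal values are thus normalized read counts for 16 libraries. They returned whole reads for 100% of values at a tolerance of 0.01, with 20623769 to 71855101 reads on genes per library, and 0 columns of values were left without a sample.

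The log2(value + 1) of genes with a mean of at least 10 was fitted with limma 3.58.1 (R 4.3.3), using only the groups compared, with genotype or treatment as a covariate where groups were joined. Fold changes are on this scale. P-values were adjusted by Benjamini-Hochberg over all genes, and a gene was called at an adjusted p under 0.05. They measure the spread between mice. As alternatives, edgeR 4.0.16 and DESeq2 1.42.0 were run on recovered reads, and scaling, filter, pseudocount, replicate block and single left-out libraries were varied. Ratios were compared by two-sided exact permutation tests within strata, whose smallest possible p was 0.005 for treatment and 0.000833 for genotype.

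The named genes are the 9 members, and of each list at most 3 genes with the smallest p for MI against sham over both genotypes and 1 for genotype over all treatments. Members and lists were chosen with earlier results of these data known. Same-numbered libraries did not deviate together (r from −0.09 to 0.13 over 14 pairs) and come from different mice. Adipocyte markers (0 called) and erythroid markers (1 higher) were also checked. Sequences and mm10 positions are from RefSeq (GRCm38.p6), and transcript lengths and overlaps from GENCODE M39. The table also holds fold changes and p-values of the authors for 1 of their comparisons, which were not used.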

Additional observations from a re-analysis of the deposited data

How the results depend on the processing

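Of the member results under alternatives, 1525 kept their direction and their side of the threshold, 31 newly passed, 14 no longer passed and 50 changed sign, all of the last without a call. Scaling to reads outside rRNA-related and mitochondrial genes shifted the median of all genes by 0.11 for MI against sham, −0.12 for genotype at baseline, 0.13 for genotype after MI and 0.22 for the interaction. Under it Acta1 after MI stood at 0.064, Nebl at baseline at −0.045, Mybpc3, Actn2 and Des after sham at −0.065, −0.0053 and −0.072, and the interactions of Myom2 and Des at 0.17 and 0.21. TMM scaling put Mybpc3 after sham at −0.00042, Des after sham at −0.0071 and the Des interaction at 0.027. Des after MI between genotypes stood at −0.049 in edgeR, −0.035 in edgeR without the filter and −0.039 in DESeq2, and without the filter edgeR also gave Des −0.0061 after sham and 0.0054 in the interaction.

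The number of members called went from 0 to 1 at baseline under that scaling and in DESeq2 and to 2 in edgeR without the filter. These called 0.254%, 0.492% and 0.929% of all genes. After MI it went to 2 in edgeR without the filter and 3 in DESeq2, over all treatments to 2 in edgeR without the filter, and for sham against baseline to 2 and 1 in these tools. Asking also for a 2-fold change left 2 of the 4 members called relative to cardiomyocyte genes. It also dropped Actc1 and Des from the calls for MI over both genotypes and Des from those in PKM2-/-.

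With single libraries left out, Acta1 ranged from −0.025 to 0.67 for MI in PKM2fl/fl, from −0.29 to 0.14 for MI in both genotypes and from −0.60 to 0.060 for genotype after sham. For genotype after sham Mybpc3 ranged from −0.057 to 0.082, Actc1 from −0.061 to 0.25 and Des from −0.022 to 0.077. Des ranged from −0.23 to 0.22 for genotype after MI, from −0.081 to 0.067 over all treatments and from −0.25 to 0.21 in the interaction, and Myom2 from −0.40 to 0.29 in the interaction and −0.15 to 0.033 relative to cardiomyocyte genes. Members called ranged from 0 to 4 for genotype after MI, and from 0 to 1 for the interaction and for sham against baseline. The genotype difference ranged from −0.60 to −0.33 for the ratio of Acta1 to Actc1 and from −0.11 to 0.018 for Myom2 to Myom1, whose MI difference ranged from −0.41 to −0.21.

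The replicate numbers name different mice and did not pair the libraries. With replicate number as a block in limma, the members stayed on their side of the threshold in each comparison, with a single exception. Des for MI in PKM2-/- lost its call (log2 −0.41, adjusted p = 0.0865).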
